A study of Mus musculus with 26 samples.

Results

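The 9 genes described here, Nes, Vim, Msi1, Msi2, Prom1, Fut4, Fabp7, Nr2e1 and Bmi1, are widely used as markers of neural stem and progenitor cells. They were chosen by symbol, and all 9 were found among the 19505 genes with a symbol on the arrays, each through 1 transcript cluster (the probe set that stands for a gene on this array). The study put cultured neural stem and progenitor cells of C57BL/6 mice on 26 arrays. They were isolated from telencephalon at postnatal day 0 (tissue that the labels also call fetal and embryonic) and grew in medium with EGF and FGF-1 up to passage 3. Wild-type (WT) cultures 1 to 6 and SOX2 knockout (KO) cultures 7 to 13 each gave 1 array after 4 h with the ethanol vehicle and 1 array after 4 h in 100 nM of the synthetic glucocorticoid dexamethasone (Dex), an agonist of the glucocorticoid receptor. Every culture came from 1 animal. Both sexes were used, and how and in which cells SOX2 was deleted is not given in the sources used here. All values are log2 units as deposited, so a difference of 1 is a doubling of signal.

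Neural stem cells line the ventricles of the developing brain, where they renew themselves and give rise to neurons and glia. SOX2 is a transcription factor that helps to keep these cells undifferentiated, and glucocorticoids are stress hormones that are known to slow their proliferation. Nes and Vim encode intermediate filament proteins, Msi1 and Msi2 encode RNA-binding proteins of the Musashi family, and Prom1 encodes the membrane glycoprotein prominin 1 (CD133). Fut4 encodes a fucosyltransferase that can make the Lewis X (CD15) carbohydrate, Fabp7 a fatty acid binding protein of radial glia, Nr2e1 the orphan nuclear receptor TLX, and Bmi1 a subunit of polycomb repressive complex 1.

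The genotype labels held. Sox2 was at 13.40 ± 0.70 (SD, n = 6) in WT vehicle arrays and 4.65 ± 0.51 (SD, n = 7) in SOX2 KO vehicle arrays. The treatment labels held in 12 of 13 cultures. In culture 4 (WT) the glucocorticoid targets Fkbp5 and Per1 were lower in the array labelled Dex (Dex minus vehicle of -2.03 and -2.74), while both were higher in Dex in the other 12 cultures. Marker differences from the models without array cluster that use WT arrays are therefore given with and without culture 4. Culture profiles, after the mean of each of the 4 groups was removed from every gene, were cut into 3 array clusters. This removal takes out the average genotype difference, so that difference had no part in the clusters. The labels name no batch for them. Cultures 1, 2, 3, 7 and 8 were in cluster 1, cultures 4, 10 and 12 in cluster 2, and cultures 5, 6, 9, 11 and 13 in cluster 3. Cluster 1 arrays had an upper quartile of signal of 10.09 to 10.43, and all others one of 9.38 to 9.79. Mean probe signals over the arrays were 4.26 to 5.49 for the microglia, endothelial and fibroblast marker lists, 9.83 to 12.11 for the astrocyte list, 9.55 to 11.64 for the oligodendrocyte lineage list and 7.94 to 9.59 for the neuron list. Probe signals of different genes are not comparable as amounts, and list members ranged widely. In the neuron list Map2 was at 13.04 to 15.59 and Rbfox3 at 4.43 to 6.34, and in the oligodendrocyte lineage list Olig1 was at 15.17 to 17.06 and Mog at 3.30 to 5.10. A bulk array cannot tell fewer cells of a type from less RNA per cell.

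None of the 9 markers passed in any comparison between groups in the models without array cluster. With array cluster as a covariate Prom1 did in vehicle, which is a description, since the clusters come from these same arrays. In SOX2 KO against WT cells 0 of 9 passed in vehicle (limma, adjusted p under 0.05 over all genes), where 0.559% of all genes did, and 1 of 9 had an unadjusted p under 0.05 (Msi2). In Dex 0 of 9 passed, where 0.564% of genes did, and 0 of 9 had an unadjusted p under 0.05. The median difference of the 9 genes was -0.03 in vehicle, against -0.03 for all genes, and -0.15 in Dex, against -0.06. Sox2 itself differed by -8.75 ± 0.35 (SE, adjusted p = 3.61e-17) in vehicle and -8.17 ± 0.35 (adjusted p = 2.49e-16) in Dex.

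**Figure D1:**
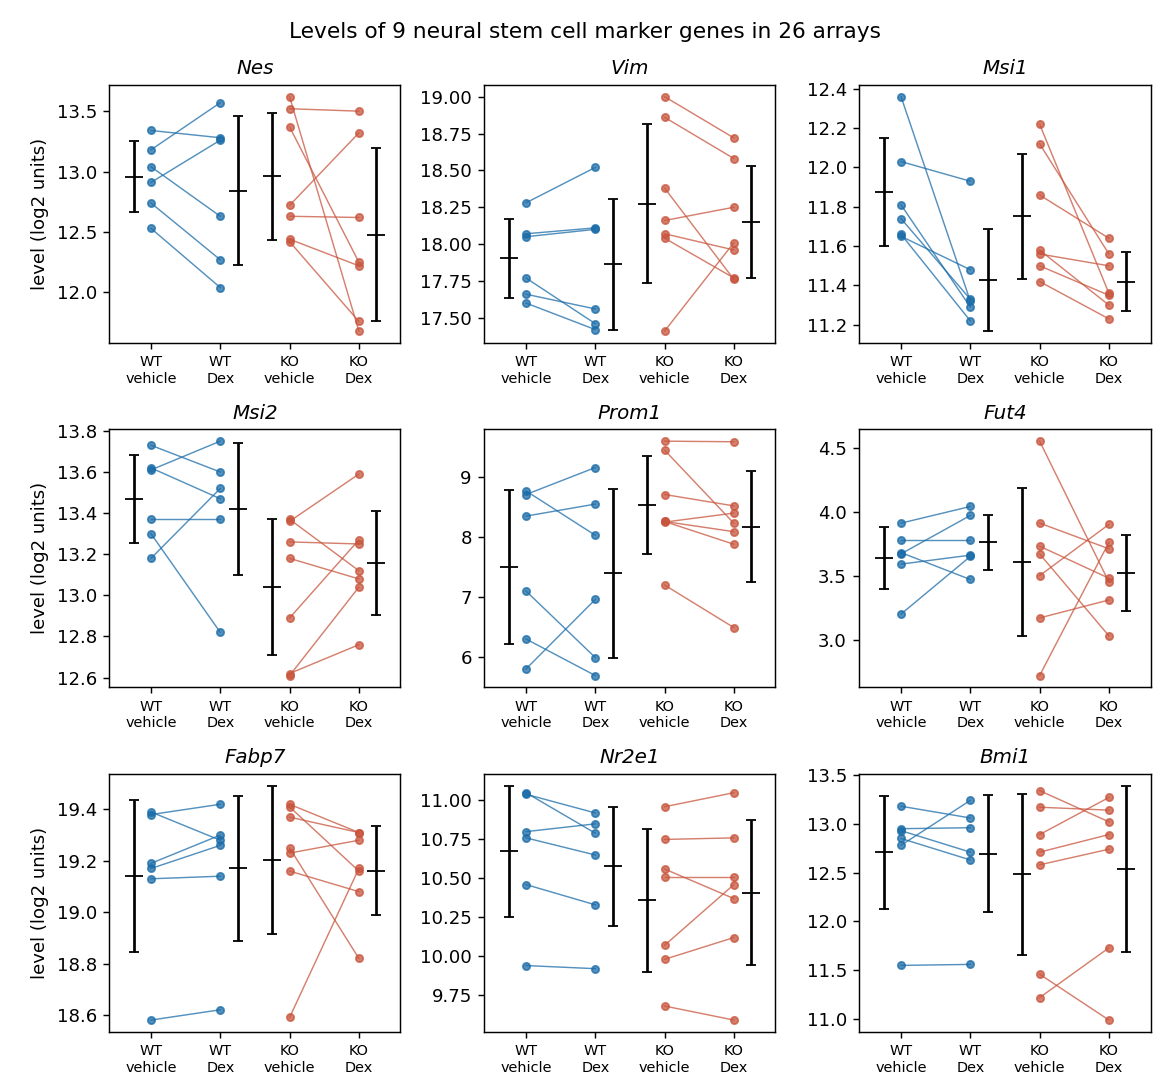
Levels of the 9 markers (log2 units, a separate scale in each panel) in the 4 groups. Points are arrays, lines join the vehicle and Dex array of a culture, blue is WT (n = 6), red is SOX2 KO (n = 7), and black bars are the mean and SD of a group; the lines of Msi1 all run downward, and those of the other markers run both ways.

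Nes encodes nestin, the filament protein most often used to mark neural progenitors, and its levels overlapped between the genotypes. WT vehicle arrays ranged from 12.53 through a median of 12.98 to 13.34, and SOX2 KO vehicle arrays from 12.42 through 12.72 to 13.62. After Dex the range was 12.04, 12.95 and 13.57 in WT and 11.68, 12.25 and 13.50 in SOX2 KO. All 4 groups overlapped, and the lowest value was that of culture 12 in Dex, the array with the lowest upper quartile (9.38). The genotype difference was 0.00 ± 0.30 (SE, 95% confidence interval -0.61 to 0.61) in vehicle and -0.36 ± 0.30 (-0.97 to 0.25) in Dex. Without culture 4 these were 0.05 ± 0.31 and -0.22 ± 0.31, and without culture 12 -0.11 ± 0.29 and -0.23 ± 0.29, so the Dex value moved by more than 1.5 times with either culture. At this number of cultures a Nes difference of up to 0.61 either way in vehicle would lie within the error.

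The Dex effect on Nes varied widely between cultures. Dex minus vehicle was negative in 4 of the 6 WT cultures and in 6 of the 7 SOX2 KO cultures, and spanned 0.60 in culture 8 to -1.94 in culture 12. With the genotype means removed, its SD over the 13 cultures was 0.68. Within cultures the effect was -0.12 ± 0.24 (SE) in WT, -0.22 ± 0.27 without culture 4, and -0.48 ± 0.23 in SOX2 KO (unadjusted p = 0.0472, adjusted p = 0.483 in limma). Without culture 12 the SOX2 KO value was -0.24 ± 0.19 (adjusted p = 0.803); the value moved by more than 1.5 times with that 1 culture. SOX2 KO minus WT in the Dex effect was -0.37 ± 0.33 (95% confidence interval -1.07 to 0.33). It was -0.27 ± 0.35 without culture 4 and -0.12 ± 0.26 without culture 12.

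SOX2 and the glucocorticoid receptor both act at DNA. The 250 bases before each annotated start of the members were therefore searched on both strands for the letters of their motifs (RefSeq, build GRCm38.p6). There were 11 windows for 8 of the 9 genes. Msi1 had no window in the source used, so its promoter was not searched. The SOX motif written AACAATG was in 0 of the 11 windows and in 3.29% of all 32851 windows, and the related AACAAAG was in 0 and in 5.03%. The glucocorticoid half-site AGAACA was in 2 of 11 windows, of Nes and Prom1, and in 16.1% of all. The 11 windows are not independent: both Prom1 windows lie inside the annotated span of that gene, so their bases may be transcribed from another start, and the 3 Msi2 windows share most of their bases. The full palindromic response element, AGAACA followed after 3 bases by TGTTCT and so overlapping the half-site, was in 0 of 11 and in 0.00913% of all windows. Nes had the most negative fitted Dex effect of the 9 genes in SOX2 KO cells with all cultures. Without culture 12 its effect was -0.24, and those of Msi1 (-0.35) and Prom1 (-0.30) were more negative. The Nes window is shown on account of the fit with all cultures. It lies at chr3:87970843-87971092 on the plus strand, and capitals mark the half-site, here read from the other strand as TGTTCT, whose first base lies at -242 from the start:
Nes: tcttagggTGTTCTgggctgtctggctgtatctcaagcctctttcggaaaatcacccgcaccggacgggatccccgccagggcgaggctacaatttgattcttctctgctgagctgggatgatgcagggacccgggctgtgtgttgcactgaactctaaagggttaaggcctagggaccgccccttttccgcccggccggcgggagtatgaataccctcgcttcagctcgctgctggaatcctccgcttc
These arrays measure no binding, and a match in the letters is a description of the window alone.

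Vim, whose protein vimentin forms filaments together with nestin, was among the brighter genes, at 17.91 ± 0.27 (SD, n = 6) in WT vehicle arrays and 18.27 ± 0.54 (SD, n = 7) in SOX2 KO vehicle arrays. WT vehicle arrays lay between 17.60 and 18.28 and SOX2 KO vehicle arrays between 17.41 and 19.00, so the groups overlapped. The highest SOX2 KO values were those of cultures 10 (19.00) and 12 (18.86), both in array cluster 2, and the highest WT value was that of culture 4 (18.28), the WT culture of the same cluster. The genotype difference was 0.37 ± 0.24 (SE, 95% confidence interval -0.12 to 0.86) in vehicle and 0.29 ± 0.24 (-0.20 to 0.77) in Dex, and 0.44 ± 0.24 and 0.42 ± 0.24 without culture 4. Dex minus vehicle was -0.04 ± 0.15 in WT, -0.10 ± 0.16 without culture 4, and -0.12 ± 0.13 in SOX2 KO, with both signs among the cultures of each genotype. Of 11 other measured intermediate filament and lamin genes, 0 passed in any of these comparisons, where at most 0.564% of all genes did.

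Msi1 encodes Musashi 1, a repressor of the translation of Numb and other messages. It was the 1 marker of the 9 that was lower in the array labelled Dex of every culture. In WT cultures 1 to 6 its level went from 11.81 to 11.29, 11.74 to 11.33, 11.65 to 11.48, 12.03 to 11.93, 12.36 to 11.32 and 11.66 to 11.22. In SOX2 KO cultures 7 to 13 it went from 12.12 to 11.56, 11.56 to 11.50, 11.42 to 11.23, 11.50 to 11.35, 11.58 to 11.30, 11.86 to 11.64 and 12.22 to 11.36. Dex minus vehicle was most negative in culture 5 (-1.04) and culture 13 (-0.86) and least in culture 8 (-0.06) and culture 4 (-0.10), whose Fkbp5 and Per1 ran against the label. A lower value in all 13 cultures was seen in 13 of the 19505 genes (0.0666%). That count takes the labels of culture 4 as given. If they were exchanged, Msi1 would be higher in Dex in that culture, which was not tested. Without culture 4, a lower value in all of the other 12 cultures was seen in 55 genes (0.282%).

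The size of the Msi1 difference was modest and it did not pass over all genes. It was -0.45 ± 0.14 in WT (SE, 95% confidence interval -0.75 to -0.14, unadjusted p = 0.00638, adjusted p = 0.998 in limma), and -0.52 ± 0.16 without culture 4 (adjusted p = 0.653). In SOX2 KO it was -0.33 ± 0.13 (-0.61 to -0.05, unadjusted p = 0.0235, adjusted p = 0.436). Of all genes 0% passed in WT (0 of 19505, with 755 at an unadjusted p under 0.05) and 0.0718% in SOX2 KO, and of the 9 markers 0 passed in either genotype, with 1 and 2 at an unadjusted p under 0.05. Without culture 4, 0.169% of all genes passed in WT (33) and 0.251% in SOX2 KO (49), and still 0 of the 9 markers. SOX2 KO minus WT in the Msi1 response was 0.12 ± 0.20 (95% confidence interval -0.30 to 0.53), and 0.18 ± 0.21 without culture 4. For the mean of both genotypes, a contrast added after the values were seen, Msi1 was at -0.39 ± 0.10 (adjusted p = 0.196, and 0.0825 to 1.00 over the alternatives tried), where 0.144% of genes passed and 0 of the 9 markers did. Without culture 4 it was at -0.42 ± 0.10 (adjusted p = 0.100), where 0.497% of genes passed. Between genotypes Msi1 differed by -0.12 ± 0.17 (-0.48 to 0.23) in vehicle and -0.01 ± 0.17 (-0.36 to 0.35) in Dex. Without culture 4 the values were -0.09 ± 0.18 and 0.09 ± 0.18, so the sign in Dex turned.

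**Figure D2:**
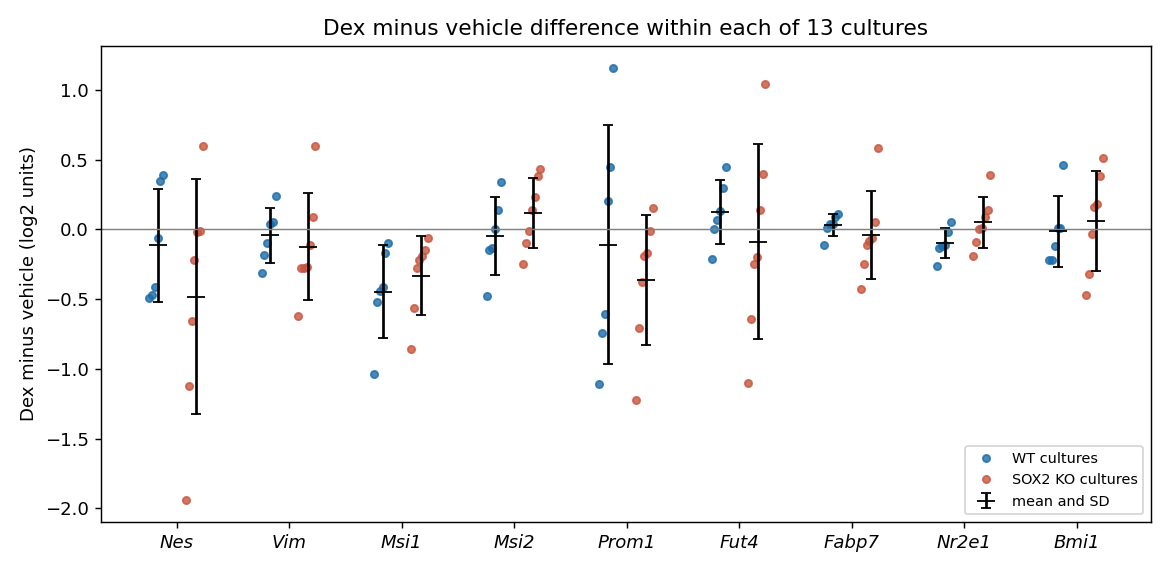
Dex minus vehicle in log2 units for each marker and culture (points; blue WT, n = 6; red SOX2 KO, n = 7), with the mean and SD of each genotype in black; the grey line is no difference. The points of Msi1 all lie below it, from -1.04 to -0.06, and the other 8 markers have points on both sides.

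Msi2, the second Musashi gene, had Dex minus vehicle values of both signs. It was the marker with the smallest p between genotypes in vehicle. WT vehicle arrays ranged from 13.18 through a median of 13.49 to 13.73 and SOX2 KO vehicle arrays from 12.61 through 13.18 to 13.37. The upper SOX2 KO values overlapped the lower WT values, and 3 SOX2 KO cultures (10, 11 and 12) lay below every WT culture. The difference was -0.43 ± 0.18 (SE, 95% confidence interval -0.80 to -0.05, unadjusted p = 0.0276, adjusted p = 0.768 in limma) in vehicle, -0.46 ± 0.19 without culture 4, and -0.26 ± 0.18 (-0.64 to 0.11) in Dex (-0.38 ± 0.19 without culture 4). With array cluster as a covariate the vehicle difference was -0.33 ± 0.12 (adjusted p = 0.245). Dex minus vehicle was -0.05 ± 0.14 in WT, 0.04 ± 0.14 without culture 4, and 0.12 ± 0.13 in SOX2 KO. Of 6 measured targets and partners of the Musashi proteins, 0 passed in any comparison, where at most 0.564% of all genes did.

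Prom1 had the largest fitted genotype difference of the 9 markers and the widest spread between cultures. WT vehicle arrays were at 8.77, 8.35, 8.71, 6.30, 5.80 and 7.10 in cultures 1 to 6, and SOX2 KO vehicle arrays at 9.45, 9.60, 8.25, 8.71, 8.26, 7.20 and 8.26 in cultures 7 to 13. Both groups were high in array cluster 1, and the 3 lowest values were all WT (cultures 4, 5 and 6). SOX2 KO minus WT was 1.03 ± 0.55 in vehicle (SE, 95% confidence interval -0.09 to 2.15, adjusted p = 1.00 in limma) and 0.77 ± 0.55 in Dex (-0.35 to 1.90, adjusted p = 0.850). Without culture 4 these were 0.79 ± 0.54 and 0.43 ± 0.54, so the value in Dex moved by more than 1.5 times with that 1 culture.

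Within each array cluster, Prom1 was higher in the SOX2 KO than in the WT vehicle arrays without overlap, by 0.92 in cluster 1, 1.66 in cluster 2, where culture 4 is the only WT culture, and 1.81 in cluster 3. This holds for 1.61% of all genes. In Dex the cluster differences were 0.33, 1.82 and 1.65, and the groups overlapped in cluster 1. With array cluster as a covariate the vehicle difference was 1.42 ± 0.33 (95% confidence interval 0.75 to 2.10, adjusted p = 0.0164), so that 1 of 9 markers passed where 1.93% of all genes did. The clusters were drawn from the same arrays and from all genes, Prom1 included, after the group means were removed. The fit took them as known. Its SE and adjusted p do not count how they were chosen and can be too small, so this pass is a description. With the covariate the difference in Dex was 1.17 ± 0.33 (0.50 to 1.84, adjusted p = 0.0610), where 2.04% of genes passed. The vehicle call was lost on leaving out culture 4 (1.35 ± 0.36, adjusted p = 0.0749) or culture 5 (1.20 ± 0.34, adjusted p = 0.0921) and held without each other culture. Quantile normalization, which removes the difference in upper quartiles between the clusters, gave 1.11 ± 0.50 (adjusted p = 0.684) without the covariate.

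**Figure D3:**
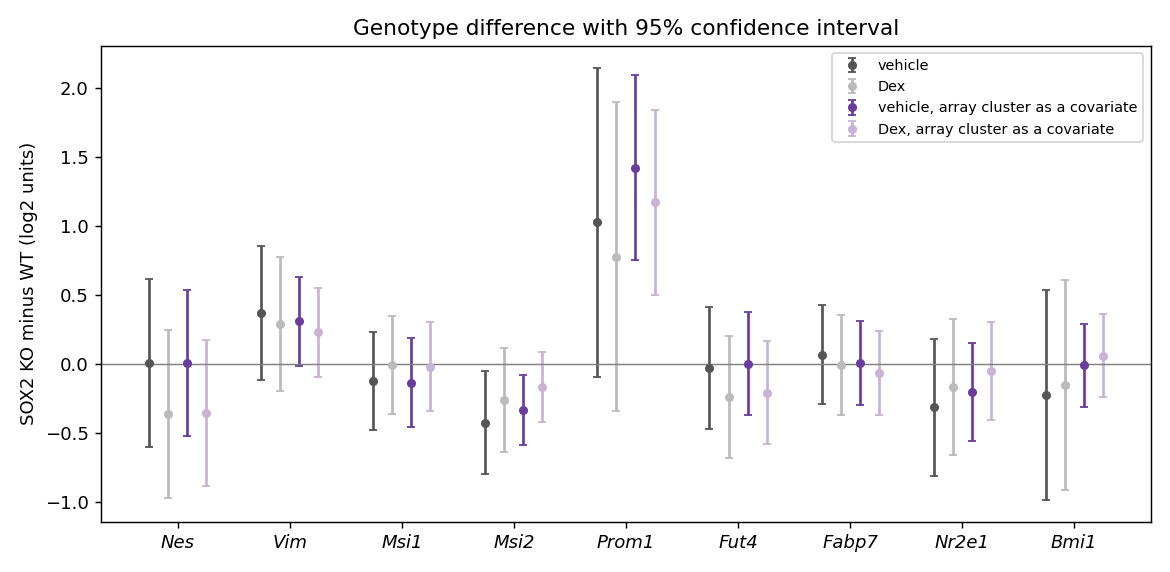
SOX2 KO minus WT in log2 units for each marker, with 95% confidence intervals, in vehicle and in Dex and with and without array cluster as a covariate. The intervals of Prom1 with the covariate, from 0.75 to 2.10 in vehicle and 0.50 to 1.84 in Dex, lie above 0. Of the others, only those of Msi2 in vehicle exclude 0. Intervals with the covariate take the clusters, which were drawn from these same arrays, as known and can be too narrow.

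The Dex effect on Prom1 had no common direction in WT, where 3 of 6 cultures were lower and 3 higher, from -1.11 in culture 6 to 1.16 in culture 5. In SOX2 KO 6 of 7 cultures were lower, the most in culture 7 (-1.22). The effects were -0.11 ± 0.24 (SE, 95% confidence interval -0.62 to 0.40) in WT, -0.01 ± 0.27 without culture 4, and -0.36 ± 0.22 (-0.83 to 0.11) in SOX2 KO. Of the 2 measured genes of the prominin family and its partners, 0 passed in any comparison, where at most 0.564% of all genes did.

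Fut4 was dim on every array. Its values lay between 2.72 and 4.55, below the median of all genes on each array, and no detection call was used here. Group means were 3.64 ± 0.24 (SD, n = 6) and 3.76 ± 0.21 in WT and 3.61 ± 0.58 (SD, n = 7) and 3.52 ± 0.30 in SOX2 KO, in vehicle and Dex. The extremes were both SOX2 KO vehicle arrays, cultures 10 (4.55) and 13 (2.72). The genotype difference was -0.03 ± 0.22 (SE, -0.47 to 0.41) in vehicle and -0.24 ± 0.22 (-0.68 to 0.20) in Dex, and -0.0029 ± 0.23 and -0.24 ± 0.23 without culture 4. The Dex effect was 0.12 ± 0.20 in WT, 0.15 ± 0.23 without culture 4, and -0.09 ± 0.19 in SOX2 KO. Of the 9 measured other fucosyltransferase genes, which include Fut9, a further maker of Lewis X, 0 passed, where at most 0.564% of all genes did. For Fut9 SOX2 KO minus WT was -0.48 ± 0.21 in vehicle (limma unadjusted p = 0.0278, adjusted p = 0.768) and -0.38 ± 0.21 in Dex (adjusted p = 0.741). The median of this list was 0.04 in vehicle and -0.03 in Dex.

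Fabp7 stood at the other end of the scale, among the 4 highest named genes on all 26 arrays and the highest on 8; these ranks are of probe signals, not of transcript amounts. Its values lay between 18.58 and 19.42, within 0.37 of the highest named gene of the same array. The 3 lowest values were those of culture 3 (18.58 in vehicle and 18.62 in Dex) and culture 7 in vehicle (18.59), on arrays whose highest named gene was also at 18.58 to 18.62. On all other arrays Fabp7 was at 18.82 or above. Whether the signal is compressed near this upper limit was not tested. Group means were 19.14 ± 0.30 (SD, n = 6) and 19.17 ± 0.28 in WT and 19.20 ± 0.29 (SD, n = 7) and 19.16 ± 0.17 in SOX2 KO. The genotype difference was 0.06 ± 0.18 (SE, -0.30 to 0.42) in vehicle and -0.01 ± 0.18 (-0.37 to 0.35) in Dex. Without culture 4 these were 0.11 ± 0.19 and 0.04 ± 0.19, so the sign in Dex turned. The Dex effect was 0.03 ± 0.13 in WT, also 0.03 without culture 4, and -0.04 ± 0.12 in SOX2 KO. Of the 8 other fatty acid binding protein genes, 0 passed, where at most 0.564% of all genes did.

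Nr2e1 encodes TLX, a repressor that is needed for the self-renewal of neural stem cells. Its level differed between cultures and hardly within them. With the genotype means removed, the culture means had an SD of 0.43 and the Dex minus vehicle differences one of 0.15. WT vehicle arrays ranged from 9.94 through a median of 10.78 to 11.05 and SOX2 KO vehicle arrays from 9.68 through 10.51 to 10.96. The groups overlapped over most of their range, with culture 6 lowest in WT and culture 13 lowest in SOX2 KO, both in array cluster 3. The genotype difference was -0.32 ± 0.24 (SE, 95% confidence interval -0.81 to 0.18) in vehicle and -0.17 ± 0.24 (-0.66 to 0.33) in Dex, and -0.29 ± 0.26 and -0.11 ± 0.26 without culture 4. Dex minus vehicle was -0.10 ± 0.12 (-0.34 to 0.15) in WT, -0.13 ± 0.13 without culture 4, and 0.05 ± 0.11 (-0.18 to 0.28) in SOX2 KO. Of 9 measured corepressors and relatives of Nr2e1, 0 passed, where at most 0.564% of all genes did.

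Bmi1, whose product silences the Cdkn2a locus as part of polycomb repressive complex 1, was low in array cluster 2 in both genotypes and both treatments. In cluster 2 it was at 11.55 and 11.56 in culture 4, 11.22 and 11.73 in culture 10, and 11.46 and 10.99 in culture 12, in vehicle and Dex. On the other 20 arrays it was between 12.58 and 13.34. The 6 arrays of cluster 2 thus lay below all others, as those of 5.44% of all genes did, and they hold both genotypes. Because the clusters were drawn from all genes, Bmi1 included, after the group means were removed, this is a description. The genotype difference was -0.23 ± 0.37 (SE, 95% confidence interval -0.99 to 0.54) in vehicle and -0.15 ± 0.37 (-0.92 to 0.61) in Dex, and -0.46 ± 0.35 and -0.38 ± 0.35 without culture 4. With array cluster as a covariate it was -0.01 ± 0.15 (-0.32 to 0.29) in vehicle and 0.06 ± 0.15 (-0.24 to 0.36) in Dex, so the sign in Dex turned and the intervals narrowed. These intervals take the clusters as known and can be too narrow. The Dex effect was -0.01 ± 0.15 in WT, -0.02 ± 0.17 without culture 4, and 0.06 ± 0.14 in SOX2 KO. Of 16 other measured polycomb genes and the 3 measured cell cycle inhibitor genes that Bmi1 or Nr2e1 repress, 0 passed in any comparison. At most 0.564% of all genes did, so this is near that share. Cdkn2a was higher in SOX2 KO cells without passing, by 0.53 ± 0.26 in vehicle and 0.64 ± 0.26 in Dex (limma adjusted p = 0.964 and 0.502). Cdkn1a was at 0.30 and 0.11 and Cdkn2b at 0.34 and -0.03.

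**Figure D4:**
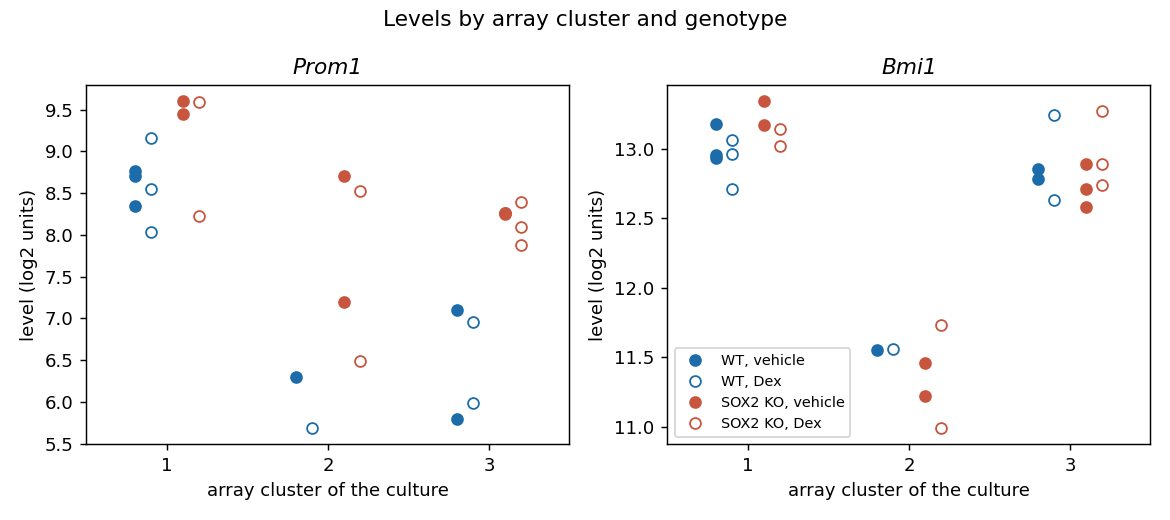
Levels of Prom1 and Bmi1 (log2 units) by array cluster, with WT in blue, SOX2 KO in red, vehicle as filled and Dex as open points, 1 point per array. Bmi1 is low in the 6 arrays of cluster 2 in both genotypes (10.99 to 11.73), and Prom1 is higher in SOX2 KO than in WT vehicle arrays in each of the 3 clusters.

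The test of a difference between the genotypes in Dex response passed for 0 of 9 markers and 0 of 19505 genes (0%) in limma, with 0 markers and 688 genes at an unadjusted p under 0.05, and for 0 markers and 0 genes without culture 4. Its widest intervals were those of Nes, given above, and Prom1, at -0.25 ± 0.33 (SE, -0.95 to 0.44), or -0.35 ± 0.35 without culture 4. The narrowest was that of Nr2e1, at 0.15 ± 0.16 (-0.18 to 0.48), or 0.18 ± 0.17 without culture 4.

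Other genes of neural stem and progenitor cells, from a list of 26 of which 24 were measured, gave 1 call in the genotype comparisons. Over all genes 0.559% passed in vehicle and 0.564% in Dex. Lrig1, which encodes a negative regulator of EGF receptor signalling, was lower in SOX2 KO cells: it fell by 1.32 ± 0.24 (SE, limma adjusted p = 0.00266) in vehicle and fell by 1.30 ± 0.24 (adjusted p = 0.00331) in Dex. Tnc, in the same list, went the other way without passing, by 1.25 ± 0.39 (limma adjusted p = 0.237) in vehicle and 0.90 ± 0.39 (adjusted p = 0.563) in Dex. Egfr was lower without passing, by -0.92 ± 0.26 (adjusted p = 0.127) and -0.90 ± 0.26 (adjusted p = 0.137). The median of the 24 genes was -0.15 in vehicle and -0.19 in Dex. For Dex minus vehicle 0 of 24 passed in either genotype, where 0% of all genes did in WT and 0.0718% in SOX2 KO. Of the marker lists of other cell types, 1 of 7 neuron genes and 1 of 6 astrocyte genes passed, both lower in SOX2 KO cells. The median difference was -0.24 in vehicle and -0.47 in Dex for the neuron list, and -0.05 and -0.19 for the astrocyte list. In vehicle the means of Tubb3, Snap25, Aqp4 and S100b were higher in SOX2 KO arrays. Those of the other measured genes of both lists were lower. The synaptic vesicle gene Syt1 differed by -1.59 ± 0.34 (adjusted p = 0.0149) and the aldolase gene Aldoc by -1.71 ± 0.22 (adjusted p = 3.57e-05) in vehicle. In Dex the values were -1.42 ± 0.34 (adjusted p = 0.0399) and -1.40 ± 0.22 (adjusted p = 0.000803). Lrig1 and Aldoc passed in both treatments under all 20 alternatives tried, Syt1 in vehicle under all 19 and in Dex under 8 of 19, with adjusted p of 0.0117 to 0.129; that call was lost on leaving out any 1 of cultures 1, 2, 3, 4, 8, 9, 10, 11, 12 or 13, and in a fit of the Dex arrays alone (adjusted p = 0.0713). In vehicle the mean of the astrocyte list was 9.91 to 11.86 in WT and 10.07 to 11.83 in SOX2 KO arrays, and that of the neuron list 8.49 to 9.27 and 8.32 to 8.95. What part such cells have in the levels of the 9 markers was not tested.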

How the data were processed

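The authors deposited 1 table of log2 values for 22206 transcript clusters on 26 arrays. The log2 scale was read from the deposited values (2.22 to 19.81), since the base and the normalization are not given in the sources used here. Per the labels' protocols, biotinylated cRNA was made from total RNA of each culture. No deposited value was rescaled. Gene symbols came from the platform annotation: 19572 transcript clusters had 1 symbol, 0 several and 2634 none. For 55 genes with several transcript clusters, none of them a marker described here, the one of highest mean was used.

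All tests used limma 3.58.1 (R 4.3.3) on all 19505 genes, with Benjamini-Hochberg adjustment over all of them and a threshold of 0.05. Genotypes were compared between the fitted means of the 4 groups. That fit had no replicate block, so its estimate of the spread treated the 2 arrays of a culture as independent. Dex effects came from a model with the culture number as a replicate block, because the labels give each number 1 vehicle and 1 Dex array. After removal of group means the 2 arrays of a number correlated at 0.31 to 0.73, and for 22 of 26 arrays the best match was their pair. Errors are moderated standard errors (SE) for differences and SD for levels, and the number of arrays limits the precision. Array clusters came from average linkage on the correlation of culture profiles after removal of group means. The tree was cut at 3 clusters, a number set beforehand. Fits with array cluster as a covariate took the clusters as known, so their SE and adjusted p do not count how the clusters were drawn.

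The members, lists and alternatives were chosen with earlier results of these data known. All 9 members are described in every comparison. From each list up to 4 genes of smallest p among those past the threshold are named, together with Sox2, Fkbp5 and Per1, the 2 genes of most similar profile to each member, and no predicted loci. Further list members are named only to show how a list spreads. In simulated data with 19505 genes, the genotype fit in vehicle recovered 41% of changes of 1 log2 unit and 97% of changes of 2. The Dex fits recovered 78% and 98% in WT, and 81% and 99% in SOX2 KO. Unchanged genes also passed, 11 in the genotype fit in vehicle, 8 in the Dex fit of WT and 7 in that of SOX2 KO. The simulated noise was normal and independent between genes, without array clusters. Its spread between cultures was the SD of culture means, which holds part of the spread within cultures. The spread within cultures was then added, so the noise of the genotype fit was not that of the data. These rates are averages over randomly drawn genes and are not rates for the 9 markers. Figures were drawn with matplotlib 3.10.9.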

Additional observations from a re-analysis of the deposited data

Results flagged for a closer look

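In each of 54 groups (a member's levels in a group, or its Dex minus vehicle differences in a genotype) the highest and lowest value were set against the rest with Dixon's ratio, and 7 groups had a value that stood apart. For independent groups of normal values chance gives about 1 in 20. These groups share cultures and arrays, so their count cannot be set against that rate. Bmi1 in culture 4 was at 11.55 in vehicle and 11.56 in Dex, below the other WT cultures, as described with array cluster 2. The Bmi1 difference of Dex minus vehicle in culture 6 (0.46) stood above those of the other WT cultures. Msi1 in the array of culture 4 labelled Dex was at 11.93, above the other WT Dex arrays. Fabp7 was low in culture 3 (18.58 in vehicle and 18.62 in Dex) and in the vehicle array of culture 7 (18.59).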

How the results depend on the processing

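Of 933 marker values under alternatives, 869 kept their sign and side of the threshold, 16 became significant, all of Prom1 with array cluster as a covariate, and 48 that were not significant changed sign. With that covariate 1 marker (Prom1) passed in vehicle, and with it in Dex Prom1 passed without culture 3 (adjusted p = 0.0356), 7 (0.0121) or 12 (0.0175); no other alternative gave a marker call, and Prom1 lost that of vehicle without culture 4 or 5, as given above. Adding the culture as a random replicate block to the covariate gave 1.42 ± 0.32 (adjusted p = 0.0140) and 1.17 ± 0.32 (0.0550). All fits with the covariate took the clusters as known, so these calls are a description. With the culture as a random replicate block alone, or no replicate block for Dex, no marker call changed. The filter on dim genes removes Fut4 and Syt1 and moved the median of all genes in Dex to -0.12. A fit of only the groups compared gives no difference of Dex effects. Background correction could not be varied from the deposited table.

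The number of genes passing in vehicle (109) was 168 after quantile normalization and 376 with array cluster as a covariate. In Dex (110) it was 171 and 397 under the same settings and 72 in a fit of the Dex arrays alone, quantile normalization moved its split from 36 higher and 74 lower to 78 and 93 and median centring to 67 and 77, and leaving out 1 culture gave 69 (without culture 1) to 160. For Dex in WT (0) leaving out 1 culture gave 0 to 33, the latter without culture 4. For Dex in SOX2 KO (14) the filter on dim genes gave 24, a fit of the SOX2 KO arrays alone 31, and leaving out 1 culture 3 (without culture 13) to 49 (without culture 4). For the mean of both genotypes (28) the filter on dim genes gave 44, array cluster as a covariate 17, no replicate block 15, and leaving out 1 culture 5 (without culture 6) to 97 (without culture 4).

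Signs turned as follows, each for a difference that did not pass. Quantile normalization gave -0.071 for Fabp7 in SOX2 KO minus WT in vehicle, 0.10 for Msi1 in SOX2 KO minus WT in Dex, and 0.00054 for the Bmi1 Dex effect in WT. Median centring gave 0.0049 for Fut4 in SOX2 KO minus WT in vehicle, and 0.072 for both Msi1 and Fabp7 in SOX2 KO minus WT in Dex. Array cluster as a covariate gave 0.060 for Bmi1 in SOX2 KO minus WT in Dex, -0.022 for the Fabp7 Dex effect in WT and 0.011 for that of Bmi1. Leaving out 1 culture gave, for SOX2 KO minus WT in vehicle, -0.11 to 0.093 for Nes, -0.048 to 0.17 for Fabp7 and -0.19 to 0.12 for Fut4. In Dex it gave -0.050 to 0.092 for Msi1, -0.12 to 0.048 for Fabp7 and -0.38 to 0.105 for Bmi1. For the Dex effect in WT it gave -0.12 to 0.04 for Msi2, -0.36 to 0.092 for Prom1, -0.10 to 0.01 for Vim and -0.11 to 0.028 for Bmi1. For that in SOX2 KO it gave -0.15 to 0.022 for Fabp7, -0.28 to 0.082 for Fut4, -0.0067 to 0.09 for Nr2e1 and -0.017 to 0.15 for Bmi1. For SOX2 KO minus WT in the Dex effect it gave -0.0034 to 0.20 for Msi1, -0.45 to 0.00057 for Prom1, -0.20 to 0.0017 for Vim and -0.0033 to 0.17 for Bmi1. The cause was not tested.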

Other observations

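Of the 13 genes that were lower in the Dex array of all 13 cultures, 11 besides Msi1 carry a gene name: Ttbk2, Stx6, Bcl2, Kcna2, Gins1, Gadd45g, Lrrtm2, Gtf2h4, Crhr2, Serpini2 and Mycn. The 6 genes that were higher in all 13 cultures were Prkd1, Sycp3, Igf2, Cyp2r1, Vsig1 and H2-DMb1. The lists include culture 4, whose Fkbp5 and Per1 ran against its label, and genes that turned there are missing from them. Without culture 4, 55 genes were lower and 79 higher in all of the other 12 cultures.

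The genes with the most similar profile to each member over the 13 culture means, after the mean of each array cluster was removed, were ranked by Pearson correlation as a description. They were Rpl14 (0.93) and Cul9 (0.90) for Nes, Pdx1 (0.97) and a predicted locus not named here (0.94) for Msi1, and Rgs7 and Olfr180 (0.91 each) for Msi2. For Prom1 they were Tbca and Vps54 (0.95 each), for Fabp7 Actb (0.96) and Cfl1 (0.93), and for Fut4 Trmt1 (0.94) and Erlec1 (0.92). Cox7a2l (0.91) and Smim8 (0.90) were closest to Nr2e1, a predicted locus not named here (0.95) and Bcl11a (0.92) to Vim, and Pla2g4f (0.93) and Tmprss9 (0.89) to Bmi1. The 2 highest of 19505 genes are given for each member, over 13 cultures that share arrays and scaling.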
